A study of Mus musculus with 4 samples.

Results

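The genes that encode histones were examined in WT and Haspin-KO E14 mESCs. E14 is a mouse embryonic stem cell line, and Haspin is the kinase that phosphorylates histone H3 at Thr3 in mitosis. Members were taken from the gene symbols of the deposited table, and only symbols marked -ps were left out as pseudogenes. Symbols had the older clustered form (Hist1h2ao), the newer clustered form (H2ac8, H2bc4, H3c8, H4c9) or the form of the H1, H3 and H4 genes with an f (H1f0, H3f3a, H4f16). The rule found 76 of 55401 genes. Of these, 75 were histone genes, and the remaining one, H3f3aos, is an antisense RNA of H3f3a and was left out of all sums. Kept among the 75 were H3f3c, H3f4, H2ac14 and Hist1h2al, which have no stop codon in the GENCODE M21 annotation. Some histone genes carry symbols outside the rule, among them H2bu2, H2bfm, H2aw and the H2A variants (such as H2ax and H2az1), and 6 H2A variants are described separately.

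The samples were 2 WT and 2 Haspin-KO RNA-seq libraries, all from E14 cells kept in serum with LIF and 2i and given no further treatment. The paper's methods give mouse embryonic fibroblast feeders for passage and gelatin for assays, and do not say which applied to the RNA-seq. The Haspin-KO lines were made with CRISPR/Cas9 and a pair of gRNAs against the Haspin coding sequence. Single clones were picked after puromycin selection, and the labels do not say which line each library came from. Nothing in the labels says that the 2 libraries of a group came from separate cultures, so the p-values below measure the spread between these libraries, which may be technical. The question addressed is whether histone gene transcripts differ in amount when the histone kinase is lost.

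Replication-dependent histone genes lie in clusters, lack introns and are transcribed mainly in S phase. Their mRNAs end in a conserved stem-loop instead of a poly(A) tail, and SLBP binds this stem-loop to direct processing, translation and decay. The replication-independent variants, such as H3.3 (H3f3a, H3f3b), H1.0 (H1f0) and H1.10 (H1f10), are made throughout the cell cycle from ordinary polyadenylated mRNAs, and H3.3 is deposited outside DNA replication by the HIRA and DAXX-ATRX chaperones.

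Of the 75 histone genes, 67 were clustered genes: 6 of H1, 19 of H2A, 17 of H2B, 12 of H3 and 13 of H4. Chromosome 13 held 56 members and chromosome 3 held 10. In the GENCODE M21 transcripts (mm10), 44 of the 67 clustered genes held a histone stem-loop after the stop codon, and no other member did. The search looked on the transcript strand for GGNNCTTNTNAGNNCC, with the first 6 bases able to pair with the last 6. The same pattern was found in 11 of 21830 other protein-coding genes (0.05%), of which 4 carry histone symbols outside the rule (H2ax, H2aw, H2bu2 and H2bfm). Between the stop codon and the stem-loop lay 21 to 58 bases, with a median of 31. Of the 23 clustered genes without a match, 15 had under 37 bases annotated after the stop codon, which is too short for the shortest spacing seen, and 13 had none.

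The stem-loops of the 7 clustered genes that had both a stem-loop and enough reads to be tested are shown with 5 flanking bases on each side. They are written 5′ to 3′ on the gene's strand as DNA letters. The share of these genes in the class sums below differed. In the first WT library, H1f2 gave 211 of 231 clustered H1 counts, and Hist1h2bp gave 5 of 238 clustered H2B counts. Capitals mark the 16 bases of the stem-loop.
H1f2: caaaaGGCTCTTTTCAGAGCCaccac
Hist1h2ao: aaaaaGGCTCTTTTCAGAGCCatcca
H2ac8: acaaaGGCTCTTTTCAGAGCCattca
Hist1h2bp: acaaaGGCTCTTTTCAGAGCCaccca
H3c3: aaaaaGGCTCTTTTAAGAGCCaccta
H3c8: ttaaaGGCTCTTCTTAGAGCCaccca
H4c9: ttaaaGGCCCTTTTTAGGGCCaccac
The capital bases lie in mm10 at chr13:23739512-23739527 on the plus strand for H1f2, at chr13:21810898-21810913 on the plus strand for Hist1h2ao, and at chr13:23570668-23570683 on the minus strand for H2ac8. For Hist1h2bp they lie at chr13:21787923-21787938 on the plus strand, for H3c3 at chr13:23745047-23745062 on the minus strand, for H3c8 at chr13:23535889-23535904 on the plus strand, and for H4c9 at chr13:22040966-22040981 on the minus strand. The form carried by H1f2, Hist1h2ao, H2ac8 and Hist1h2bp was the most frequent, in 24 of the 44 genes. A further 7 genes carried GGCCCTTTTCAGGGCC, and 6 carried the form of H3c3. H2bc4 and H2bc21, the other clustered genes tested, had no match in their annotated transcripts.

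The libraries held 14207828 to 21834847 counts. CPM below use the TMM-scaled library total, FPKM are the deposited values per length, and 3 counts in a library (0.137 to 0.210 CPM) were taken as the smallest amount shown. Haspin (chr11:73135485-73138294) had 40.1 and 35.7 CPM in WT and 10.4 and 14.6 CPM in Haspin-KO, a log2 fold change of -1.60 ± 0.16 (SE; edgeR quasi-likelihood test, adjusted p = 0.00154), so the targeted transcript was lower and still detected. The 10 embryonic stem cell markers checked were all expressed, and none was called changed by edgeR or DESeq2. At an unadjusted p under 0.05, 3 were lower, where 10.4% of all genes tested were lower. Of 15 fibroblast (feeder) markers, 11 were tested, and edgeR called 8 of them lower (adjusted p under 0.05 and fold change over 2). Over all genes tested, 0.828% were called in either direction. At an unadjusted p under 0.05, 9 of the 11 were lower, against 10.4% of all genes. The feeder list summed to 250.0 and 188 CPM in WT against 34.5 and 38.7 CPM in Haspin-KO. Lox, Postn and 4 other feeder markers were at 0 in both Haspin-KO libraries (Lum also in WT), while Col1a1 remained at 1.67 and 1.68 CPM. Of 18 markers of 2-cell-like cells, 17 were tested, and edgeR called 6 of them higher by the same thresholds. At an unadjusted p under 0.05, 14 of the 17 were higher, against 10.4% of all genes. This list summed to 91.9 and 85.4 CPM in WT against 227 and 174 CPM in Haspin-KO. In bulk RNA, fewer cells of a type and less RNA per cell cannot be told apart, and the part of these differences in the histone values was not tested.

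Histone genes differed widely in level within every library, far more than between WT and Haspin-KO. All histone members together took 0.10 to 0.122% of the counts of a library. The H3.3 genes H3f3a and H3f3b made up 90.9% of this sum in WT and 91.9% in Haspin-KO, the H1 variants H1f0 and H1f10 5.67% and 5.16%, and the 67 clustered genes 3.39% and 2.92%. Clustered genes thus received only 0.00314 to 0.00398% of all counts. These shares are of counts not divided by length, and most clustered genes are short. In summed FPKM, the first WT library had 333 for H3.3, 50.15 for clustered genes and 45.8 for the H1 variants, of 431 in all. Per length, clustered genes thus stood above the H1 variants, as in every other library. Of the 75 histone genes, 20 were above 3 counts in every library, 26 were at or below 3 counts in every library, and 10 had no count at all, which allows up to 3 counts per library. Only 13 passed the filter on low counts, of which 9 were clustered genes.

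The low counts of clustered genes stand beside low counts of other transcripts that lack a poly(A) tail. The libraries were prepared with a SMARTER mRNA-Seq kit. Of 18 RNAs made without a poly(A) tail, 10 were at 0 in every library, among them the telomerase RNA Terc and the U7 snRNA gene Rnu7, and the list summed to 2.02 to 2.87 CPM. Only Rn7sk and Snord17 were tested, and neither was called by edgeR (0 at an unadjusted p under 0.05) or DESeq2. The part of poly(A) selection in the histone counts was not tested.

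**Figure D1:**
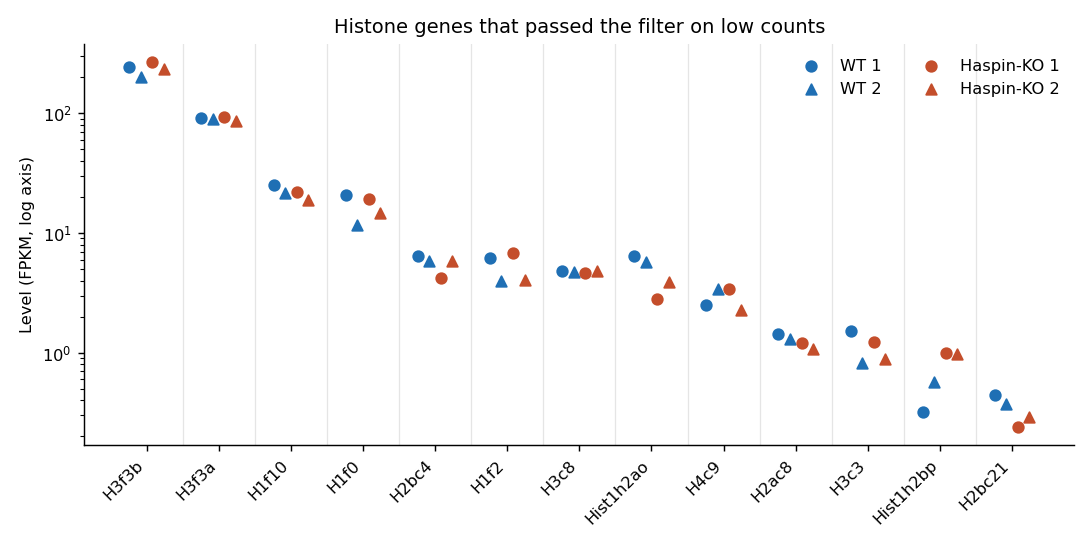
Level in FPKM (log axis) of the 13 histone genes that passed the filter on low counts, ordered by mean level, with blue for WT, orange for Haspin-KO, circles for libraries numbered 1 and triangles for libraries numbered 2. H3f3b lies between 203 and 267 FPKM and H3f3a between 85.6 and 93.1 FPKM, whereas every clustered gene lies below 7 FPKM.

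None of the 13 histone genes tested was called changed between Haspin-KO and WT by edgeR (fold change over 2 and adjusted p under 0.05 by the Benjamini-Hochberg method), where 129 of 15580 genes (0.828%) were called. Without the fold minimum the count was again 0, against 2.50% of all genes. The smallest adjusted p among the histone genes was 0.155. At an unadjusted p under 0.05, 1 of 13 histone genes (Hist1h2ao, lower) was found, against 20.8% of all genes. DESeq2, which called 0.724% of the 12285 genes it gave an adjusted p, also called 0 histone genes, but gave one to only 7 of the 13 (not to Hist1h2ao, Hist1h2bp, H2bc21, H2ac8, H3c3 or H4c9). Limma on log2(FPKM + 0.1) called 0 of 14817 genes, so its count of 0 says nothing about the histone genes. By edgeR, 4 of the 13 had a log2 fold change above 0 and 9 below 0, where 49.4% and 50.6% of all genes lay above and below 0. Of the 4, Hist1h2bp passed the filter only through its Haspin-KO libraries. The median log2 fold change of the 13 was -0.054, and that of the 9 clustered genes was -0.19, against -0.0039 over all genes tested.

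**Figure D2:**
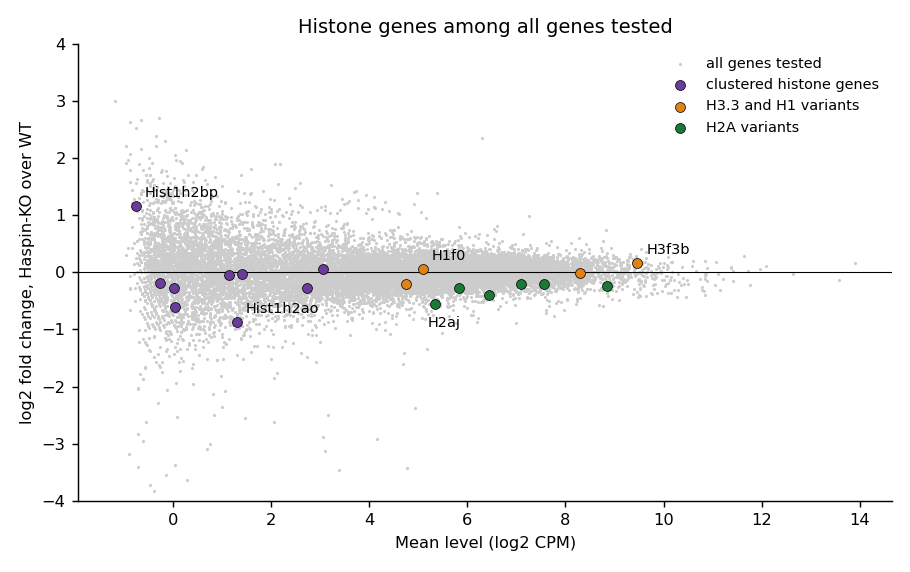
Log2 fold change of Haspin-KO over WT (vertical axis) against mean level in log2 CPM (horizontal axis) for all 15580 genes tested (grey), with clustered histone genes in purple, H3.3 and H1 variants in orange and H2A variants in green. The 34 genes beyond a log2 fold change of 4 in either direction are not drawn, and none of them is a histone gene; Hist1h2ao and Hist1h2bp, labelled at the left, lie farthest from 0 among the histone genes.

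H3f3b (chr11:116021912-116027962), which encodes H3.3, had the highest level of all members. It had 15759 and 10525 counts in WT and 11285 and 10087 in Haspin-KO, or 721 and 607 CPM in WT and 786 and 706 CPM in Haspin-KO. The groups overlapped, because the first WT library lay above the second Haspin-KO library. Its log2 fold change was 0.17 ± 0.093 (SE, n = 2 per group; edgeR adjusted p = 0.335), with a 95% interval from -0.041 to 0.38. The value was 0.29 without the first WT library, 0.050 without the second, 0.091 without the first Haspin-KO library and 0.24 without the second, and 0.092 once corrected for GC content and gene length.

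H3f3a (chr1:180800832-180813943) encodes the same H3.3 protein from a second gene. It had 318 and 316 CPM in WT and 323 and 303 CPM in Haspin-KO, so the first Haspin-KO library lay above both WT libraries and the second below both. Its log2 fold change was -0.018 ± 0.069 (edgeR adjusted p = 0.916), with a 95% interval from -0.17 to 0.14, the narrowest of the members. Per length, H3f3b exceeded H3f3a in every library, by 2.67 and 2.27 times in WT and by 2.87 and 2.74 times in Haspin-KO (ratios of FPKM). The ratios of the groups did not overlap, and with 2 libraries a group this was not tested. Among single genes tested, 25.3% had higher and 26.9% lower values in Haspin-KO without overlap.

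The remaining H3.3-like members were near the floor. H3f3c, a single-exon copy that shares 56.7% of its 100-base stretches with another gene, most with H3f3a, had 9 and 10 counts in WT and 9 and 6 in Haspin-KO. H3f4, which encodes the H3.4 variant, had at most 2 counts in any library. The antisense RNA H3f3aos, whose exons overlap H3f3a on the opposite strand, had 10 and 1 counts in WT and 11 and 1 in Haspin-KO, so that both libraries numbered 1 stood above both numbered 2. The strand setting of the read counter is not given in the sources used here, and reads of H3f3a and H3f3aos in the shared exon may not be told apart.

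The replication-independent linker histones showed no difference beyond the spread between libraries. H1f0 (chr15:79028450-79030504), the H1.0 variant known to accumulate in slowly dividing cells, had 42.4 and 24.2 CPM in WT and 39.2 and 30.3 CPM in Haspin-KO. In both groups the library numbered 1 was the higher, and the 2 WT libraries differed more than the group means of 33.3 and 34.8 CPM. Its log2 fold change was 0.055 ± 0.23 (edgeR adjusted p = 0.921; 95% interval from -0.45 to 0.56), and the value was -0.28 without the second WT library and -0.14 without the first Haspin-KO library.

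H1f10 (chr6:87980421-87981637), the H1.10 variant, had 30.6 and 26.3 CPM in WT and 26.3 and 23.3 CPM in Haspin-KO. The groups overlapped narrowly, at 26.3 CPM in the second WT and the first Haspin-KO library. Its log2 fold change was -0.20 ± 0.12 (edgeR adjusted p = 0.390; 95% interval from -0.48 to 0.079). Correction of each library for GC content and gene length moved this value to -0.052. The germline linker histones H1f7 (4, 1, 0 and 0 counts in the order WT 1, WT 2, Haspin-KO 1, Haspin-KO 2) and H1f8 (1 count in all) were not measurable.

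Among the clustered linker histones, H1f2 (chr13:23738808-23740367), which encodes H1.2, took nearly all counts of the class. It had 211 and 109 counts in WT and 150 and 91 in Haspin-KO, or 9.66 and 6.29 CPM in WT and 10.4 and 6.37 CPM in Haspin-KO. As for H1f0, each library numbered 1 was higher than its partner numbered 2, and the groups overlapped. The log2 fold change was 0.066 ± 0.27 (edgeR adjusted p = 0.919; 95% interval from -0.54 to 0.67), and it was -0.20 without the second WT library and -0.33 without the first Haspin-KO library. H1f2 transcripts annotated in GENCODE M21 extend up to 840 bases past the stem-loop. H1f1, H1f3, H1f4 and H1f5 had 1 to 10 counts in each library, and the testis-specific H1f6 had none.

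Hist1h2ao (chr13:21810465-21810944), a core H2A gene, was the member with the smallest p. It had 67 and 48 counts in WT and 19 and 27 in Haspin-KO, or 3.07 and 2.77 CPM in WT and 1.32 and 1.89 CPM in Haspin-KO, and the groups did not overlap. The log2 fold change was -0.86 ± 0.31 (edgeR adjusted p = 0.155; 95% interval from -1.55 to -0.18), which did not pass the threshold over all genes.

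Sequence that Hist1h2ao shares with other genes limits this value. Of its 100-base stretches, 92.7% occur in another gene, most in Hist1h2ap, and its exons overlap Gm19658 on the opposite strand. Hist1h2ap had 6 and 1 counts in WT and 7 and 7 in Haspin-KO, so the near-identical copy was not lower in Haspin-KO. How the read counter treated reads that map to several places is not given in the sources used here, and the split of reads between these genes is uncertain.

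H2ac8, another core H2A gene, had 22 and 16 counts in WT and 12 and 11 in Haspin-KO. In CPM the values were 1.01 and 0.923 in WT and 0.836 and 0.770 in Haspin-KO, without overlap, and the log2 fold change was -0.27 ± 0.40 (edgeR adjusted p = 0.750). H2ac10, the third H2A gene by FPKM, had 10 and 9 counts in WT and 6 and 7 in Haspin-KO and did not pass the filter. The other clustered H2A genes had at most 11 counts in any library.

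Of the clustered H2B genes, H2bc4 (chr13:23684199-23692908) held the most reads, with 161 and 117 counts in WT and 69 and 98 in Haspin-KO. Scaled for depth, these were 7.37 and 6.75 CPM in WT and 4.80 and 6.86 CPM in Haspin-KO, so only the first Haspin-KO library lay below WT. The log2 fold change was -0.28 ± 0.22 (edgeR adjusted p = 0.501; 95% interval from -0.77 to 0.21). H2bc21, the H2B gene on chromosome 3 that shares no 100-base stretch with another gene, had 1.14 and 0.981 CPM in WT and 0.627 and 0.770 CPM in Haspin-KO. Its groups did not overlap, with a log2 fold change of -0.61 ± 0.41 (edgeR adjusted p = 0.435).

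Hist1h2bp (chr13:21787461-21789213) moved the other way, with 5 and 7 counts in WT and 10 in each Haspin-KO library. Its groups did not overlap, at 0.229 and 0.404 CPM in WT and 0.696 and 0.700 CPM in Haspin-KO. It passed the filter on low counts only through its Haspin-KO libraries, so its being tested depended on the group where it was higher. The log2 fold change of 1.16 ± 0.54 did not pass the test (edgeR adjusted p = 0.254; 95% interval from -0.043 to 2.36), and rested on 10 counts or fewer per library. H2bc8, the third H2B gene by FPKM, had 8 and 10 counts in WT and 1 and 7 in Haspin-KO.

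For the core H3 and H4 genes with the most reads, the groups overlapped. H3c8 had 2.56 and 2.54 CPM in WT and 2.44 and 2.59 CPM in Haspin-KO, with a log2 fold change of -0.021 ± 0.27 (edgeR adjusted p = 0.975; 95% interval from -0.62 to 0.58). H4c9 had 1.83 and 2.48 CPM in WT and 2.44 and 1.68 CPM in Haspin-KO, with a log2 fold change of -0.054 ± 0.33 (edgeR adjusted p = 0.948). H3c3 had 0.961 and 0.519 CPM in WT and 0.766 and 0.560 CPM in Haspin-KO, with a log2 fold change of -0.19 ± 0.49 (edgeR adjusted p = 0.865). The interval of H4c9 ran from -0.79 to 0.68 and that of H3c3 from -1.29 to 0.92. Changes of either sign within these intervals could not be told from 0. Of the genes under the filter, H3c10 had 4 to 15 counts, and H4c1 and H4c12 had 8 to 12 counts in the first 3 libraries and 0 and 1 in the second Haspin-KO library.

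Across the 13 genes, the groups did not overlap with Haspin-KO lower for 3 (Hist1h2ao, H2bc21 and H2ac8), where 26.9% of all genes tested showed this. They did not overlap with Haspin-KO higher for 1 (Hist1h2bp), where 25.3% of all genes did. Hist1h2bp passed the filter only through its Haspin-KO libraries, so its place here was partly set by the filter.

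**Figure D3:**
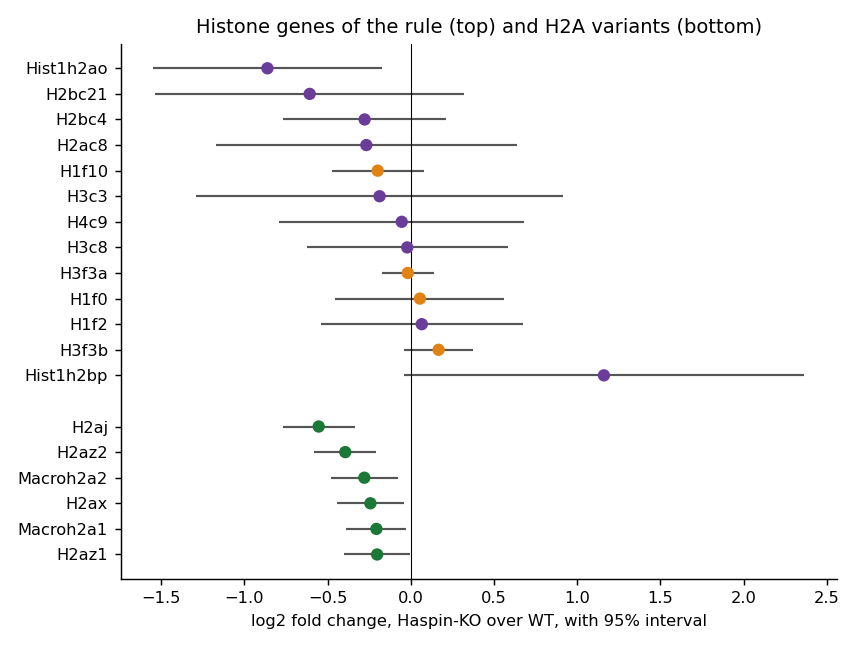
Log2 fold change of Haspin-KO over WT with its 95% interval from the edgeR fit, for the 13 histone genes tested (top; clustered genes in purple, H3.3 and H1 variants in orange) and for 6 H2A variants (bottom, green). The interval of Hist1h2ao is the only one of the 13 that leaves out 0, and the unadjusted intervals of all 6 H2A variants lie below 0.

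To use also the members with few counts, counts were summed over all genes of a class, as values with no test. The clustered H1 genes summed to 10.6 and 7.15 CPM in WT and 12.0 and 7.35 CPM in Haspin-KO, a log2 ratio of the means of 0.12 that ran from -0.27 to 0.43 with one library left out. The clustered H2A genes summed to 7.28 and 5.88 CPM in WT and 4.80 and 5.60 CPM in Haspin-KO, a log2 ratio of -0.34. The clustered H2B genes summed to 10.9 and 9.98 CPM in WT and 8.01 and 10.996 CPM in Haspin-KO, a log2 ratio of -0.14 that was 0.075 without the first Haspin-KO library. H2A was thus the clustered class whose groups did not overlap. Among single genes tested, 26.9% did not overlap with Haspin-KO lower and 25.3% with Haspin-KO higher. The H2A log2 ratio was -0.18 without the first WT library and -0.13 once corrected for GC content and gene length. Hist1h2ao alone supplied 67 of 159 and 48 of 102 H2A counts in WT, and 19 of 69 and 27 of 80 in Haspin-KO. Without this gene, the H2A sums of the groups overlapped.

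The clustered H3 genes summed to 6.41 and 5.31 CPM in WT and 5.50 and 5.04 CPM in Haspin-KO, a log2 ratio of -0.15 that was -0.0096 without the first WT library and 0.047 with the GC and length correction. The clustered H4 genes summed to 4.67 and 5.19 CPM in WT and 5.29 and 2.80 CPM in Haspin-KO, a log2 ratio of -0.28 that was 0.10 without the second Haspin-KO library. All clustered genes together had 36.7 ± 4.46 CPM in WT and 33.7 ± 2.67 CPM in Haspin-KO (SD, n = 2), a log2 ratio of -0.12 that was 0.0075 without the first WT library and 0.0071 with the GC and length correction. This difference was smaller than the spread between the WT libraries, and the sums overlapped. The H3.3 sum was 981 ± 82.6 CPM in WT and 1059 ± 69.6 CPM in Haspin-KO (SD, n = 2), a log2 ratio of 0.11, also with overlap, that was 0.027 without the second WT library and 0.033 with the GC and length correction. The H1 variants summed to 61.7 ± 15.9 CPM in WT and 59.6 ± 8.39 CPM in Haspin-KO (SD, n = 2), a log2 ratio of -0.051 that ran from -0.29 to 0.24 with one library left out.

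**Figure D4:**
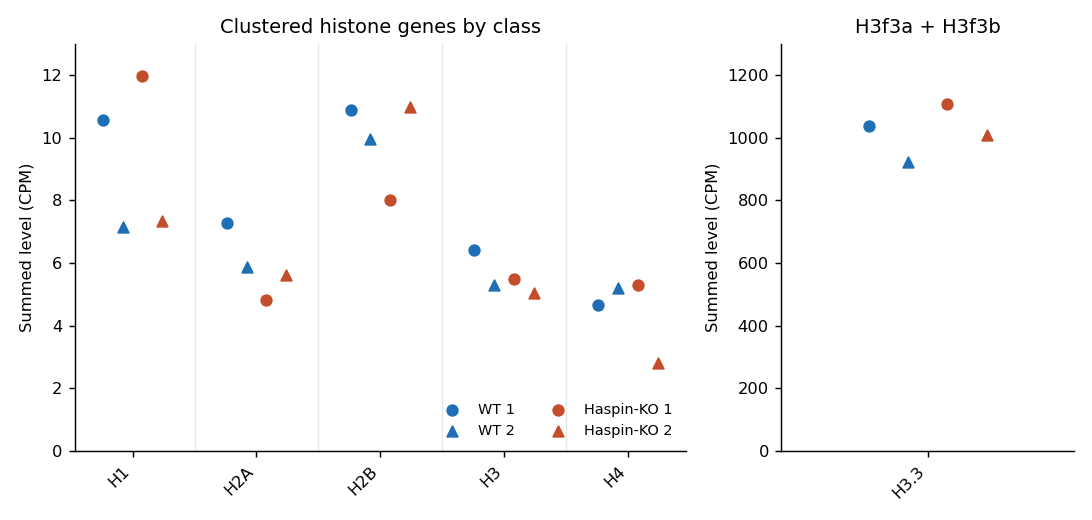
Summed level in CPM of the clustered histone genes of each class (left) and of H3f3a and H3f3b (right, on its own axis), with blue for WT, orange for Haspin-KO, circles for libraries numbered 1 and triangles for libraries numbered 2. The H2A sums of Haspin-KO (4.80 and 5.60 CPM) lie below those of WT (7.28 and 5.88 CPM), and all other classes overlap. Among single genes tested, 26.9% lay lower without overlap. Without Hist1h2ao, the H2A sums of the groups overlap as well.

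What reads the clustered genes received fell on few of them. H1f2 and H2bc4 took 38.9 to 42.9% of the clustered counts of a library, and together with H3c8, Hist1h2ao and H4c9 60.3 to 62.1%. The 21 genes whose annotated transcripts run over 100 bases past the stem-loop had a median of 5.00 counts per library, the 23 with a shorter end had 2.25, and the 23 without a match had 1.75. In FPKM, which divides by length, the medians were 0.233, 0.215 and 0.270, so the order held for counts and not per length.

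Members without any count were mostly on chromosome 3. All 7 of H2ac18, H2ac19, H2ac20, H2ac21, H2bc18, H3c13 and H3c14, of 10 members on that chromosome, were at 0 in every library, and each has exons that overlap another annotated gene. The 5 clustered genes with 100% of their 100-base stretches shared with another gene (H2ac18, H2ac19, H2bc18, H3c13 and H3c14) were all among them. The other 3 at 0 were H1f6, H2ac1 and H2bc1, which encode germline H1t, TH2A and TH2B. The part of overlapping exons and shared sequence in these zeros was not tested. Of the clustered genes with counts, 17 of 57 also overlap another gene.

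**Figure D5:**
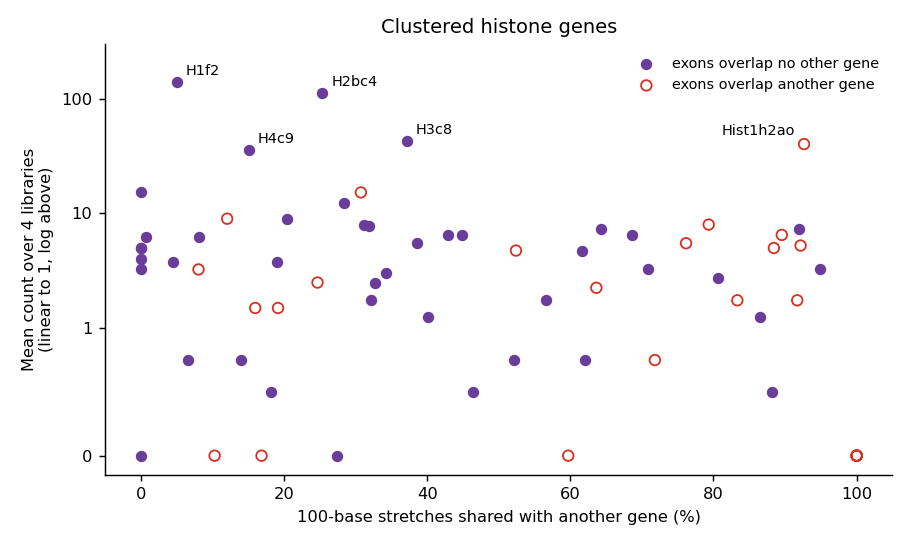
Mean count over the 4 libraries (vertical axis, linear up to 1 and logarithmic above) of the 67 clustered histone genes against the percentage of their 100-base stretches found in another gene, with open red circles for genes whose exons overlap another gene. The 5 genes at 100% coincide at a count of 0, and Hist1h2ao stands out at 92.7% with a mean of 40.3 counts.

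The H2A variants, replication-independent or partly so, were examined as a comparison and were chosen after their values were seen. H2AZ (H2az1, H2az2) marks promoters, H2AX (H2ax) is the variant phosphorylated at DNA breaks, and macroH2A (Macroh2a1, Macroh2a2) carries a large extra domain found on silent chromatin. H2aj (H2A.J) had 50.1 and 46.0 CPM in WT and 32.2 and 33.4 CPM in Haspin-KO, a log2 fold change of -0.55 ± 0.096 (edgeR adjusted p = 0.0216). H2az2 had 102 and 94.7 CPM in WT and 73.6 and 76.6 CPM in Haspin-KO, a log2 fold change of -0.39 ± 0.083 (edgeR adjusted p = 0.0418). The groups did not overlap for either gene, and both fell by less than 2-fold and so passed only the test without a fold minimum. By DESeq2 the adjusted p of H2aj was 0.00583. Corrected for GC content and gene length, the edgeR adjusted p was 0.0749 for H2aj and 0.0631 for H2az2. Without the first WT library it was 0.136 and 0.231, and without the second 0.0711 and 0.0996. Without the first Haspin-KO library it was 0.0105 for H2aj and 0.0635 for H2az2.

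H2ax had 539 and 452 CPM in WT and 432 and 406 CPM in Haspin-KO, a log2 fold change of -0.24 ± 0.090 (edgeR adjusted p = 0.170) that was -0.047 once corrected for GC content and gene length. H2ax also holds the stem-loop pattern in its annotated transcripts. Per length it lay at 290.0 to 389 FPKM, above H3f3b in every library. H2az1 had 206 and 199 CPM in WT and 161 and 191 CPM in Haspin-KO, with a log2 fold change of -0.20 ± 0.089 (edgeR adjusted p = 0.236). Macroh2a1 and Macroh2a2 had log2 fold changes of -0.21 ± 0.080 and -0.28 ± 0.090 (edgeR adjusted p = 0.190 and 0.125), and with the GC and length correction they were at -0.20 and -0.14. For all 6 variants, chosen with these values seen, every Haspin-KO library lay below every WT library, as for 26.9% of all genes tested. None of H2ax, H2az1, Macroh2a1 and Macroh2a2 passed the test.

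GC content moved with fold change across genes in these libraries. Over the genes tested, Pearson's r between log2 fold change and the GC content of the transcript was -0.22, a description across genes that share 4 libraries. Clustered histone genes had a median GC content of 58.8% and a median length of 530 bases, against 49.7% and 3968 bases over all genes tested. With offsets of each library for GC content and length, 0 histone genes were called, and the values of H3c8, H3c3 and H4c9 moved above 0, to 0.21, 0.018 and 0.10. The part of GC content in the values below 0 was not tested further.

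Genes that act on histone mRNA and histone protein were described by count. None was called by edgeR or DESeq2 in any of the 5 lists below, and 4 further genes (Npat, Slbp, Hira and Daxx) are given for their roles, chosen after their values were seen. At an unadjusted p under 0.05, 10.4% of all genes tested were higher and 10.4% were lower, which is the background of the counts below. Of 9 genes of histone gene transcription, 0 were higher and 1 was lower at this p. This gene was E2f1, a transcription factor of S phase entry, with a log2 fold change of -0.21 ± 0.095 (edgeR adjusted p = 0.238). Pou2f1, the OCT1 factor of H2B promoters, had 0.21 ± 0.10 (edgeR adjusted p = 0.263). With the GC and length correction E2f1 was at -0.087 and Pou2f1 at 0.030. Npat, the coactivator of histone gene transcription, had 91.3 and 98.2 CPM in WT and 97.0 and 109.6 CPM in Haspin-KO, a log2 fold change of 0.13 ± 0.089 (edgeR adjusted p = 0.457).

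Slbp, whose protein binds the stem-loops shown above, had overlapping groups, with 135 and 145 CPM in WT and 129 and 142 CPM in Haspin-KO. Its log2 fold change was -0.044 ± 0.082 (edgeR adjusted p = 0.802). Of all 14 genes of histone mRNA 3′ end processing, 1 was higher and 4 were lower at an unadjusted p under 0.05, against 10.4% of all genes in each direction. Sympk, the scaffold of the cleavage complex, had 166 and 193 CPM in WT and 137 and 151 CPM in Haspin-KO, a log2 fold change of -0.32 ± 0.093 (edgeR adjusted p = 0.103). Snrpd3, a protein of the U7 snRNP ring, had -0.24 ± 0.083 (edgeR adjusted p = 0.145). Of 10 genes of histone mRNA translation and decay, Zcchc6 and Zcchc11 were not found under these symbols and the other 8 were tested. Of the 8, 2 were higher and 0 lower at this p. These were Atr, the kinase of the replication checkpoint, at 0.25 ± 0.078 (edgeR adjusted p = 0.121), and the decapping enzyme Dcp2 at 0.27 ± 0.10 (edgeR adjusted p = 0.173), and with the GC and length correction they were at -0.0095 and 0.13.

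Of 32 histone chaperones and deposition factors, 4 were higher and 3 were lower at an unadjusted p under 0.05. Atrx, which deposits H3.3 with DAXX, had 422 and 476 CPM in WT and 565 and 546 CPM in Haspin-KO, a log2 fold change of 0.31 ± 0.077 (edgeR adjusted p = 0.0702). Its adjusted p was 0.0300 by DESeq2, and its log2 fold change was 0.044 (edgeR adjusted p = 0.823) with the GC and length correction. Vps72, the H2A.Z chaperone also called YL1, had -0.29 ± 0.087 (edgeR adjusted p = 0.108). Daxx had 0.067 ± 0.083 (edgeR adjusted p = 0.693) and Hira, of the other H3.3 chaperone complex, -0.018 ± 0.093 (edgeR adjusted p = 0.937).

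Of 28 genes of S phase and DNA replication, 0 were higher and 5 were lower at an unadjusted p under 0.05, against 10.4% of all genes in each direction, with a median log2 fold change of -0.090 against -0.0039 over all genes. Mcm5, a subunit of the replicative helicase, had 842 and 835 CPM in WT and 665 and 748 CPM in Haspin-KO, a log2 fold change of -0.25 ± 0.075 (edgeR adjusted p = 0.111). Gins4, a subunit of the GINS complex, had -0.25 ± 0.081 (edgeR adjusted p = 0.121), and -0.15 with the GC and length correction. The part of S phase gene levels in the clustered histone sums was not tested.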

How the data were processed

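Libraries of 2 WT and 2 Haspin-KO samples were grouped by their labels. The authors trimmed reads with Cutadapt (1.9.1) and mapped them to mm10 with Hisat2 (2.0.1), and the submitters' processing notes also name HTSeq (0.6.1) and DESeq2. The authors deposited raw counts per gene, and FPKM, which divide counts by exonic length and library total. Annotation release and strand setting are not given in the sources used here. The members and gene lists were chosen with earlier results of these data known.

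Under R (4.3.3), counts passing edgeR's (4.0.16) low-count filter were scaled by TMM and compared by quasi-likelihood test without a block, and p-values were adjusted by Benjamini-Hochberg over all genes tested. The code was tested on simulated data. Alternatives were DESeq2 (1.42.0), limma (3.58.1) on log2(FPKM + 0.1) and log2(FPKM + 1), other scalings and filters, thinning, loess offsets (span 0.3) for GC content and length, the replicate block and leaving out each library. Named were Haspin, the 5 histone genes of smallest p in each direction (4 were higher), the 3 clustered genes of each class with the highest FPKM, the variants tested, and from each list the called genes or the 2 of smallest p, of which only examples are printed for the marker lists. Shared sequence was counted as 100-base stretches of GENCODE M21 transcripts, whose coordinates equal those of all 76 members. Intervals and floors cover counting error and the spread between these libraries only.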

Additional observations from a re-analysis of the deposited data

How the results depend on the processing

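The count of 0 histone genes called at a fold change over 2 was also 0 in each of the 15 alternatives, but limma called no gene at all and DESeq2 gave 6 of the 13 no adjusted p, so those counts were fixed or limited by the tools. It was also 0 without the fold minimum (0) and with loess offsets for GC content and length without it (0). The replicate block with no fold minimum, chosen after seeing the data, gave 2 histone genes, H3f3b (log2 fold change 0.17, adjusted p = 0.0287) and Hist1h2ao (-0.87, adjusted p = 0.0237), where 3514 genes (22.6%) were called, and the block with loess offsets gave 0 where 2180 genes were called. Same-numbered libraries deviated together (r = 0.34 across genes). With the block, H2aj and H2az2 had edgeR adjusted p of 1.04e-08 and 5.61e-07. H2ax, H2az1, Macroh2a1 and Macroh2a2 had 0.00115, 0.00722, 0.00958 and 0.00272. But with 2 pairs and no label that ties the numbers to a batch, same-numbered libraries share only a number.

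Of all genes, 129 were called, against 265 with no filter, 0 by limma with either pseudocount, 407 (2.61%) with the replicate block, 337 with the block and loess offsets, 390 with no fold minimum, 204 with loess offsets and no fold minimum, and 60 to 266 with one library left out. The clustered H2A log2 ratio was -0.69 over its tested genes only, -0.13 with loess offsets and -0.48 to -0.18 with one library left out. So left out, other class ratios changed sign: clustered H1 (-0.27 to 0.43), H2B (-0.38 to 0.075), H4 (-0.82 to 0.10), all clustered (-0.24 to 0.0075) and the H1 variants (-0.29 to 0.24). Among single genes this held for H1f0 (-0.28 to 0.52), H1f2 (-0.33 to 0.41), H3f3a (-0.061 to 0.022), H3c3 (-0.53 to 0.34), H3c8 (-0.070 to 0.025), H4c9 (-0.34 to 0.19), Slbp (-0.12 to 0.026), Hira (-0.066 to 0.030), Daxx (-0.0030 to 0.14), Rn7sk (-1.80 to 0.45) and Snord17 (-0.036 to 0.86). With loess offsets, alone and with the block, H3c3 was at 0.018 and 0.045, H3c8 at 0.21 and 0.20, H4c9 at 0.10 and 0.11, Hira at 0.028 and 0.029, Npat at -0.032 and -0.036, and Atr at -0.0095 and -0.0097. With thinned counts, H4c9 was at 0.15 and Hira at 0.0028. The causes were not tested. Of the 75 histone genes, 62 did not pass the filter on low counts and could not be tested.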
